A study of Mus musculus with 12 samples.

Results

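The collagen, laminin and integrin genes encode the fibres and sheets of the extracellular matrix and the receptors that tie cells to them. The group was taken by gene symbol: the numbered collagen chains, the numbered laminin alpha, beta and gamma chains, and the integrin alpha and beta subunits named by one number or letter, each on a probe set annotated to exactly 1 gene. It held 153 probe sets of 74 genes (42 collagen, 10 laminin and 22 integrin genes), of 45037 probe sets tested and 18193 annotated genes. A probe set is the group of array probes that reads one transcript or transcript end, and 47 of the 74 genes had several.

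Gene expression had been measured on whole-genome Affymetrix mouse arrays in the ventral tegmental area (VTA), the midbrain region that holds dopaminergic neurons of the reward circuit. All mice were wild type C57 mice (C57BL/6 in the study's methods) with no treatment. The groups, with 4 arrays each, were called young at 2 months of age, middle aged at 10 months and late-middle aged at 18 months. Every array carried RNA pooled from the hand-dissected VTA of 5 mice, so a value is an average over animals and over all cells of the region. Young arrays 3 and 4 correlated at r = 0.998, with 1 probe set differing by more than 1 log2 unit, against 85 to 4905 such probe sets in the other pairs of same-aged arrays. They were therefore averaged and counted as 1 sample, which left 3, 4 and 4 samples at 2, 10 and 18 months. Array 3 of 10 months stood apart from the others of its age (r = 0.967 to 0.984), and results are also given without it.

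In brain, collagen IV and laminins form the basement membrane around vessels and under the meninges, fibrillar collagens lie in vessel walls and meninges, and the neural tissue between holds little of either. Integrins work as pairs of 1 alpha and 1 beta subunit. The beta 2 subunit is confined to leukocytes and microglia, the beta 1 subunit pairs with most laminin- and collagen-binding alpha subunits, and the alpha V subunit pairs with several beta subunits to bind vitronectin, fibronectin or latent TGF-beta. Microglia are the resident immune cells of the brain.

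Few of these genes were called changed with age. At 18 against 2 months, 3 member probe sets rose (1 for Itgb2 and 2 for Itgb5) and 3 fell (1 each for Col3a1, Col8a1 and Itgb3), with no laminin chain and no integrin alpha subunit in either direction. These were 6 of 153 member probe sets (3.92%), against 7.46% of all 45037 probe sets, of which 4.55% rose and 2.91% fell. The median value at 2 months was 5.73 for the member probe sets and 6.19 for all probe sets, and the shares were not matched for it. A probe set was called changed at an adjusted p under 0.05 and a change over 1.3-fold, by limma with Benjamini-Hochberg adjustment over all probe sets. With each gene read at its brightest probe set, Itgb2 rose and Col3a1 fell among 74 genes, against 8.82% of all genes called. With arrays centred on their medians, or quantile normalized again, the calls were 3 higher and 1 lower. Without 10 months array 3 they were 3 higher and 5 lower, with the alpha subunits Itga8 and Itgae added. Among all probe sets 2047 rose and 1312 fell in the main fit, and 3134 and 2192 without that array. With centring the numbers were 2540 and 926, and with repeated quantile normalization 1896 and 1402. The values of the 18 and 2 months samples did not overlap for 8 member probe sets that were higher and 23 that were lower at 18 months, against 10.4% and 13.1% of all probe sets. An unadjusted p under 0.05 was found for 27 members, against 23.6% of all probe sets. The median log2 change of the member probe sets was -0.10, against -0.06 over all probe sets.

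At 10 against 2 months the same 3 probe sets for Itgb2 and Itgb5 rose and none fell, 3 of 153 against 1.36% of all probe sets called (0.837% higher and 0.524% lower). The ages did not overlap for 6 members that were higher and 12 that were lower at 10 months, against 6.35% and 6.25% of all probe sets, and 15 members had an unadjusted p under 0.05, against 15.6%. Without 10 months array 3 the calls were also 3 higher and none lower, but there were 0 without young sample 1 or 2, 10 months array 1 or 4, or 18 months array 2, and 0 with only the compared ages in the fit. The calls over all probe sets were 613 in the main fit and 1256 without 10 months array 3. They were 1 without young sample 1, and 3 without young sample 2 or 10 months array 1 or 4. Without 18 months array 2 they were 53, and with only the compared ages 0. The comparisons of 10 and of 18 months use the same young samples, so their results are not independent. At 18 against 10 months no member was called, against 0.00222% of all probe sets, and 4 members had an unadjusted p under 0.05, against 5.06%. The test for unequal change over the intervals before and after 10 months called no member and no other probe set (0.0%), and 6 members had an unadjusted p under 0.05, against 5.47%.

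**Figure D1:**
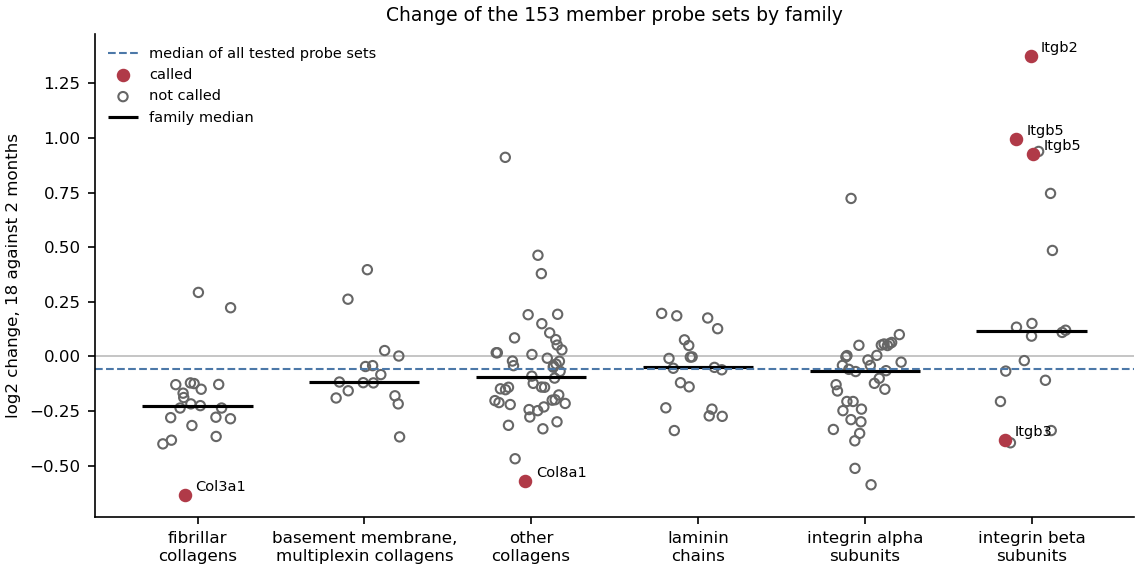
Log2 change at 18 against 2 months (y axis) of each of the 153 member probe sets, grouped by family on the x axis. Filled points passed the test, open points did not, black bars are family medians and the dashed line is the median of all tested probe sets. The 3 called rises all lie among the integrin beta subunits, and the fibrillar collagens lie mostly below 0.

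Of the 8 integrin beta genes 5 had a change above 0 and 3 below at 18 against 2 months (median 0.14). Itgb2 encodes the beta chain shared by the leukocyte integrins, which bind complement fragments and intercellular adhesion molecules. Its single probe set (1450678_at) read 6.01, 6.66 and 6.93 in the young samples, 7.49, 7.51, 7.52 and 7.58 at 10 months, and 7.75, 8.07, 7.74 and 8.08 at 18 months, in log2 units. All the 10 and 18 months samples lay above all the young ones, and the 10 months samples lay below the 18 months samples. The gene rose 2.60-fold at 18 against 2 months, by 1.38 ± 0.19 on the log2 scale (SE, adjusted p = 0.00438, limma), and 1.99-fold at 10 against 2 months (adjusted p = 0.0389). The log2 difference between 18 and 10 months was 0.38 and was not called. The call at 10 months was lost without young sample 1 or 2, 10 months array 1 or 4, or any of the 4 arrays of 18 months, which share in the estimate of the spread (adjusted p = 0.0525 to 0.182), while that at 18 months held without each sample.

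Neither Itgam nor Itgal, which encode alpha subunits that pair with beta 2, was called. Itgam, the alpha M chain of complement receptor 3, read 4.10, 4.45 and 4.84 in young samples, 5.51, 4.96, 6.03 and 5.37 at 10 months, and 5.13, 5.42, 5.80 and 4.42 at 18 months. The 10 months samples all lay above the young ones, while one 18 months sample lay below the highest young sample. Its log2 change was 1.0 ± 0.32 at 10 against 2 months (adjusted p = 0.142) and 0.72 ± 0.32 at 18 against 2 months (adjusted p = 0.194, 95% interval 0.03 to 1.42). Itgal, the alpha L chain of lymphocyte function-associated antigen, had a log2 change of -0.25 (adjusted p = 0.351) at its brighter probe set and -0.06 at the other.

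Of 14 measured markers of microglia and other myeloid cells 6 rose at 18 against 2 months (42.9%, against 8.82% of all genes called) and none fell: P2ry12, Cd68, Mpeg1, Ptprc, Ctss and Tmem119, with log2 changes of 1.58, 1.44, 1.24, 0.99, 0.69 and 0.51. The mean level of the 14 was 8.58 to 8.86 in young samples, 8.96 to 9.42 at 10 months and 9.24 to 9.54 at 18 months. Other defining markers gave log2 changes near 0 with no call, namely Csf1r (-0.17), Cx3cr1 (0.14) and C1qb (-0.17), each with a mean level above 8 at every age. The means of other marker lists also lay apart. Of 10 neuronal markers 3 rose and 1 fell at the brightest probe set. The risen Snap25 and Syt1 each had another probe set called lower (log2 changes -0.96 and -0.99). A second probe set of Stmn2, which also rose, changed by -0.12 without a call. For the 10 markers the mean was 12.11 to 12.44 at 18 months and 11.61 to 11.98 at 2 months. For 11 astrocyte markers, of which 1 rose, it was 11.84 to 12.07 at 18 months and 11.59 to 11.71 at 2 months. The part of these cells in the Itgb2 result was not tested, and in bulk tissue more cells of a type cannot be told apart from more RNA per cell.

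**Figure D2:**
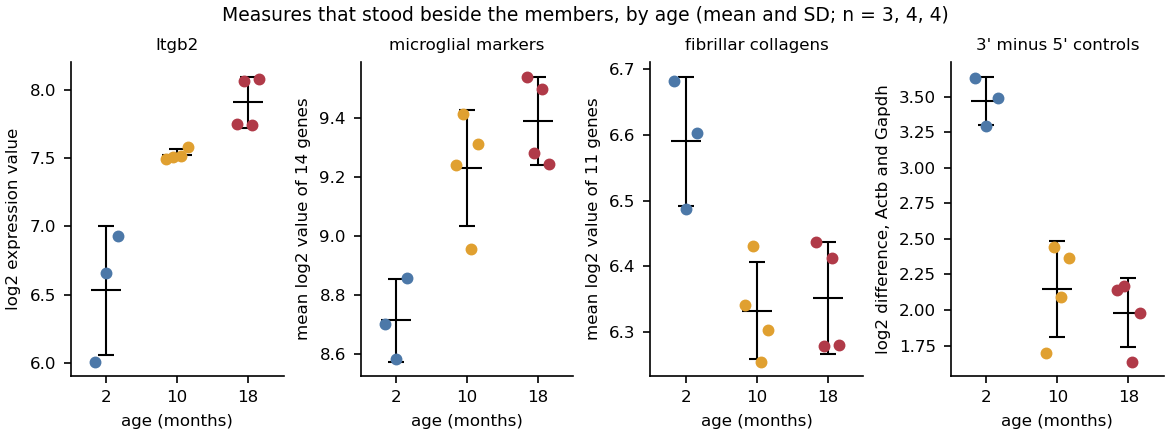
Level by age (x axis, months) of Itgb2, of the mean of 14 microglial marker genes, of the mean of 11 fibrillar collagen genes, and of the 3′ minus 5′ difference of the Actb and Gapdh control probe sets, all in log2 units on the y axes. Points are samples (n = 3, 4 and 4), bars mean and SD. In all 4 panels the young samples lie apart from the 18 months samples.

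Itgb5 encodes the beta 5 subunit, which pairs with alpha V to bind vitronectin and is often listed among the genes of resting microglia. Its RefSeq promoter window (GRCm38.p6, 250 bases before to 50 after the annotated start) is shown because Itgb5 was the only member with more than 1 called probe set. It lies at chr16:33829415-33829714 on the + strand and is 65.7% G or C. Capitals mark GC boxes, GGGCGG or its reverse complement CCGCCC, found at 3 places here and on either strand in 35.7% of 32851 mouse promoter windows (both strands searched).
Itgb5: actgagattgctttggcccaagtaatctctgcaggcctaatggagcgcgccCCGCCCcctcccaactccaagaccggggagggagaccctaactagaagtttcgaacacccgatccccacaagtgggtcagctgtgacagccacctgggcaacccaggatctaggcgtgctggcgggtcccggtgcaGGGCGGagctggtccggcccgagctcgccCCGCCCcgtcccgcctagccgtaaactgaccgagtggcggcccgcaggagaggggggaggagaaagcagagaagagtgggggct

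Of the 4 Itgb5 probe sets, 1417533_a_at read 8.80, 8.89 and 9.35 in young samples, 9.96, 9.76, 9.52 and 9.70 at 10 months, and 9.96, 9.88, 10.21 and 9.97 at 18 months. It rose 1.99-fold at 18 against 2 months (log2 change 0.99 ± 0.15, adjusted p = 0.00611) and 1.65-fold at 10 against 2 months (adjusted p = 0.0485). Probe set 1417534_at read 8.75, 8.63 and 8.90 in young samples, 9.64, 9.43, 9.50 and 9.34 at 10 months, and 9.56, 9.75, 9.80 and 9.64 at 18 months. Both probe sets had every older sample above every young one. The second rose 1.90-fold at 18 months (log2 change 0.93 ± 0.11, adjusted p = 0.00364) and 1.64-fold at 10 months (adjusted p = 0.0297). Both calls at 18 months held without each sample. Those at 10 months were lost without young sample 1 or 2, 10 months array 1 or 4, or 18 months array 2 (adjusted p = 0.051 to 0.282), and that of 1417533_a_at also without 10 months array 2 or 18 months array 1, 3 or 4.

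The other 2 Itgb5 probe sets were not called. The brightest, 1456133_x_at, averaged 10.08 ± 0.32 at 18 months (SD, n = 4) and 9.60 ± 0.32 at 2 months (n = 3), a log2 change of 0.49 ± 0.24 that was not called (adjusted p = 0.251). For 1456195_x_at, the 18 months samples were all below the young ones, at 9.25 ± 0.10 and 9.59 ± 0.06, with a log2 change of -0.34 ± 0.18 (adjusted p = 0.277, 95% interval -0.73 to 0.05). Names ending in x_at mark probe sets whose probes can also match other transcripts. Itgb5 was the only gene of the 4 with several probe sets and a call in which a probe set had the opposite sign, whereas 23 of the 47 genes with several probe sets had signs on both sides of 0.

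Itgav, the alpha V chain, had a mean level of 11.55, 11.05 and 11.26 at 2, 10 and 18 months at its brightest probe set. Its log2 change was -0.50 ± 0.17 at 10 against 2 months (adjusted p = 0.165) and -0.29 ± 0.17 at 18 against 2 months (adjusted p = 0.331). The remaining 4 Itgav probe sets read under 5 at every age, with changes of -0.15 to 0.10. Itgb8, whose product with alpha V activates latent TGF-beta, had mean levels of 10.94, 10.76 and 11.07, and a log2 change of 0.13 at 18 against 2 months (adjusted p = 0.74, 95% interval -0.30 to 0.57).

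Itgb3, the beta 3 chain known best from platelets and also a partner of alpha V, fell at 1 of 2 probe sets. Probe set 1421511_at read 6.01, 5.80 and 5.88 in young samples, 5.65, 5.88, 5.62 and 5.77 at 10 months, and 5.60, 5.52, 5.49 and 5.47 at 18 months. The 18 months samples lay below all other samples, by a narrow margin. The level fell to 0.768 of the young level (log2 change -0.38 ± 0.10, adjusted p = 0.0413), just past the fold threshold. The fall was not called when young sample 1, 2 or 3 and 4, 10 months array 1 or 4, or any of the 4 arrays of 18 months was left out (adjusted p = 0.06 to 0.194). The brightest probe set, 1455257_at, had a change of nearly the same size with a wider error, -0.40 ± 0.22 (adjusted p = 0.308).

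**Figure D3:**
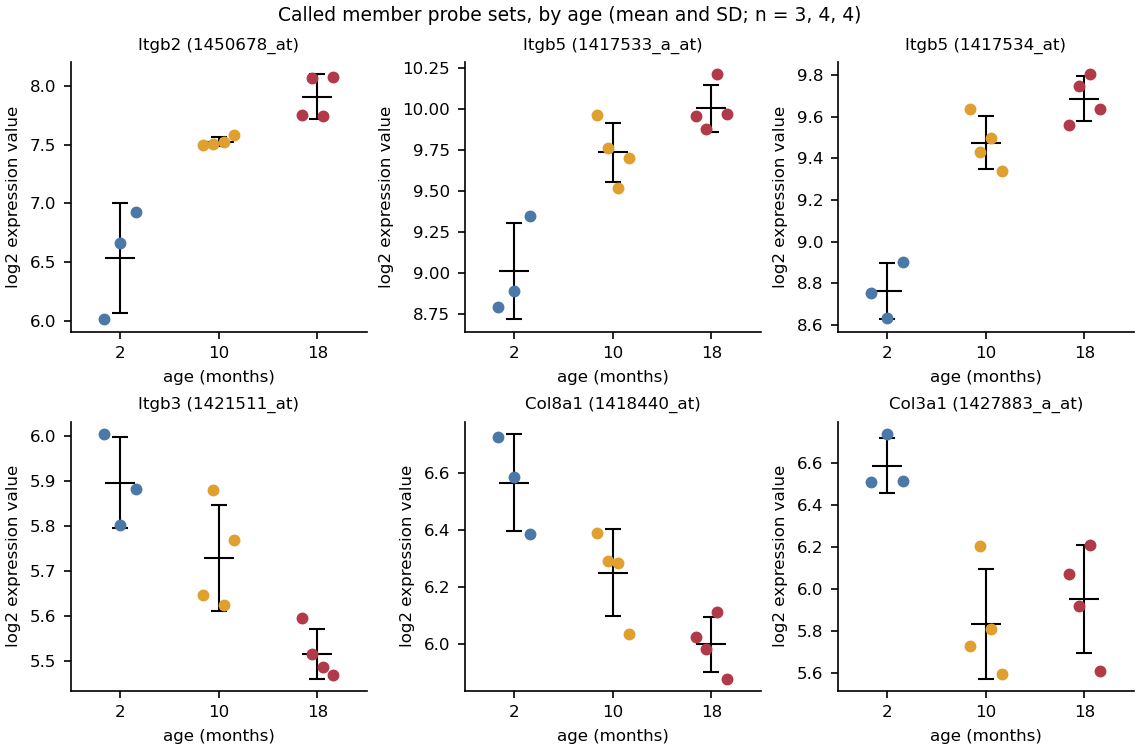
Log2 expression value (y axis) by age (x axis, months) of the 6 member probe sets called at 18 against 2 months. Points are samples, and bars are mean and SD (n = 3, 4 and 4). No 18 months sample overlaps a young sample in any of the 6 panels.

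Itgb1, the common partner of the laminin and collagen receptors, read 7.66, 7.81 and 7.52 in young samples at its brightest probe set (1452545_a_at), 7.98, 7.67, 9.28 and 7.59 at 10 months, and 7.83, 8.84, 8.07 and 8.90 at 18 months. Every 18 months sample was above every young one, but the 18 months samples ranged over more than 1 log2 unit. The log2 change of 0.75 ± 0.38 was not called (adjusted p = 0.267, 95% interval -0.09 to 1.58). A second probe set, 1426918_at, changed by 0.94 ± 0.43 (adjusted p = 0.211), and the other 4 read under 5 with changes of -0.21 to 0.11.

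Of the 14 alpha subunit genes 9 had a change below 0 and 5 above it at 18 against 2 months, with a median of -0.16 against -0.03 over all genes, and none was called in any comparison. The lowest value was that of Itga8, a beta 1 partner that binds nephronectin. It read 6.12, 6.17 and 5.78 in young samples, 5.47, 5.76, 5.64 and 5.41 at 10 months, and 5.17, 5.84, 5.21 and 5.54 at 18 months. One 18 months sample lay above the lowest young sample, and the log2 change was -0.59 ± 0.17 (adjusted p = 0.0607). Leaving out 10 months array 3 or 18 months array 2 brought its adjusted p to 0.0486 and 0.0331. The second Itga8 probe set was dim and changed by 0.06.

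Itgae, the alpha E chain that binds E-cadherin, averaged 6.96 ± 0.22 at 18 months and 7.47 ± 0.26 at 2 months, a log2 change of -0.51 ± 0.23 (adjusted p = 0.198), which passed the test without 10 months array 3 (adjusted p = 0.0418). Itga6, a laminin receptor chain, averaged 8.73 ± 0.19 at 18 months and 8.68 ± 0.04 at 2 months (log2 change 0.05, adjusted p = 0.866, 95% interval -0.25 to 0.35). Itga3, another laminin receptor chain, changed by -0.21 ± 0.18 (adjusted p = 0.53). The second Itgae probe set (1449216_at), only a little dimmer, changed by -0.13 and was not called. Other probe sets changed by 0.005 for Itga6, and by -0.02 and -0.04 for Itga3. The alpha subunit genes not named lay between -0.35 and 0.06.

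**Figure D4:**
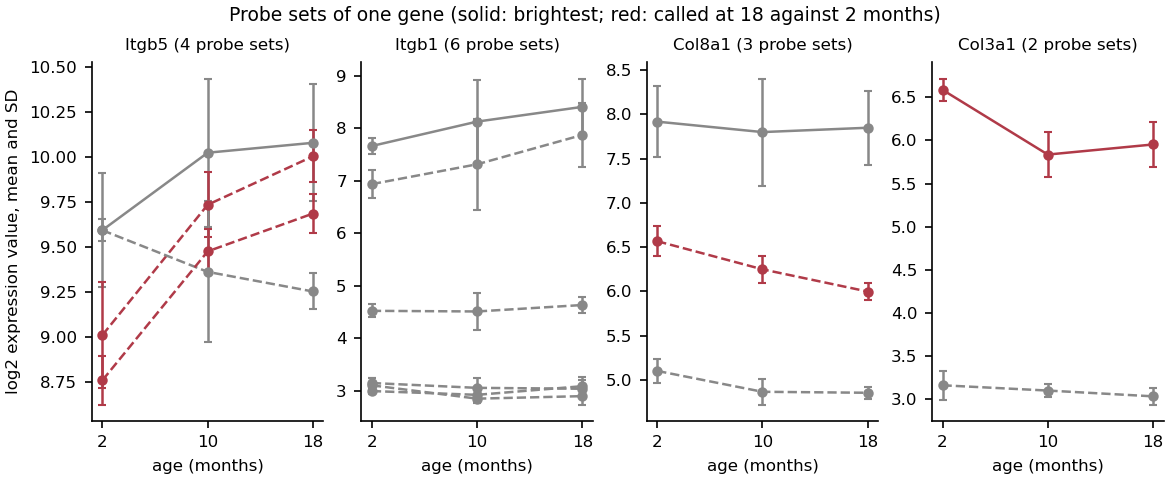
Mean log2 expression value with SD (y axis) by age (x axis, months) for every probe set of Itgb5, Itgb1, Col8a1 and Col3a1. Solid lines are the brightest probe set of a gene, and red marks a call at 18 against 2 months. In Itgb5 and Col8a1 the called probe sets are not the brightest.

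Fibrillar collagens form the banded fibres of connective tissue. Of their 11 genes 10 had a log2 change below 0 at 18 against 2 months, and of their 21 probe sets 19 did. The median over genes was -0.24, against -0.03 over all genes, and over the other ways of analysis it was -0.18 to -0.31, although with the 3′ minus 5′ covariate described at the end 7 genes were below 0 and 4 above. Only Col3a1 was called. The mean level of the 11 genes was 6.49 to 6.68 in young samples, 6.26 to 6.43 at 10 months and 6.28 to 6.44 at 18 months, so the young samples lay above all the others.

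Col3a1, the chain of collagen III in vessel walls and meninges, read 6.51, 6.74 and 6.51 in young samples at 1427883_a_at, 5.73, 6.20, 5.81 and 5.60 at 10 months, and 6.07, 5.92, 6.21 and 5.61 at 18 months. All the older samples were below all the young ones, and the 10 and 18 months samples overlapped. The gene fell to 0.645 of the young level at 18 months (log2 change -0.63 ± 0.17, adjusted p = 0.0428). At 10 against 2 months the change of -0.75 ± 0.17 narrowly missed the threshold (adjusted p = 0.0546). The call at 18 months was lost without any one of young sample 1, 2 or 3 and 4, 10 months array 1 or 4, or 18 months array 1, 2 or 4 (adjusted p = 0.0523 to 0.138), and when each array was centred on its median (adjusted p = 0.0567). The weaker probe set of the gene read near 3 and changed by -0.13.

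The promoter windows of Col3a1 and of Col8a1, described below among the other collagens, are shown because these were the collagens called, and they differ in composition. That of Col3a1 lies at chr1:45311288-45311587 on the + strand with 37.7% G or C, and that of Col8a1 at chr16:57754688-57754987 on the - strand with 60.3%. In the Col3a1 window capitals mark the single match to the TATA box sequence, TATAAA. Its first base is at -117 from the annotated start, and 13.6% of all windows hold a match. Whether it acts as a TATA box was not tested. In the Col8a1 window they mark 4 GC boxes, read as CCGCCC.
Col3a1: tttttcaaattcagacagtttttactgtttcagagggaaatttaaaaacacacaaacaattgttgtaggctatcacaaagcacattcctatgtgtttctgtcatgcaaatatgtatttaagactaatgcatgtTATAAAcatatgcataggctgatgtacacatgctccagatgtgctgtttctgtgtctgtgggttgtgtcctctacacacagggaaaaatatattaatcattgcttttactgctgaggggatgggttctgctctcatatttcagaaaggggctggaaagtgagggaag
Col8a1: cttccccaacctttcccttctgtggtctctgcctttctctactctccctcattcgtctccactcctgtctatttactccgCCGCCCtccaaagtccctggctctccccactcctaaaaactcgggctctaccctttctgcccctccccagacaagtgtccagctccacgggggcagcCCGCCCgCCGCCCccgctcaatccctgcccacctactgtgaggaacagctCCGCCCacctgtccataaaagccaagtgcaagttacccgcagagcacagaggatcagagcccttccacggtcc

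The chains of collagen I, which share fibres with collagen III, had changes of -0.32 ± 0.18 for Col1a2 (adjusted p = 0.312) and -0.29 ± 0.13 for Col1a1 (adjusted p = 0.199), both named after their values were seen. Col27a1 changed by -0.40 ± 0.16 (adjusted p = 0.15) and by -0.37 ± 0.15 at its second probe set. Col11a2 changed by -0.38 ± 0.15 (adjusted p = 0.142). Col11a1 was the exception in sign, with 8.49 ± 0.36 at 18 months and 8.20 ± 0.36 at 2 months, a log2 change of 0.29 ± 0.32 (adjusted p = 0.635) and 0.22 at its second probe set.

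Markers of meningeal and vessel cells, of choroid plexus and of blood were read against the 8.82% of all genes called. Of 14 measured markers of meninges and perivascular fibroblasts none was called at 18 against 2 months, and their mean level was 6.67 to 7.07 in young samples, 6.61 to 7.35 at 10 months and 6.74 to 7.41 at 18 months, with overlap at all ages. Of 12 markers of pericytes and vascular smooth muscle only Pdgfrb fell (log2 change -0.72, adjusted p = 0.023), and its second probe set changed by -0.02 without a call. Of 11 endothelial markers none was called. Of 10 choroid plexus markers Clic6 rose (0.76) and none fell. Ttr, the leading choroid plexus transcript, averaged 6.36 at 18 months and 8.29 at 2 months with no call (log2 change -1.92 ± 0.70, adjusted p = 0.122). Of 7 measured blood markers Pf4, a platelet chemokine, fell (-0.91, adjusted p = 0.0291). The part of these cells in the collagen and Itgb3 results was not tested.

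**Figure D5:**
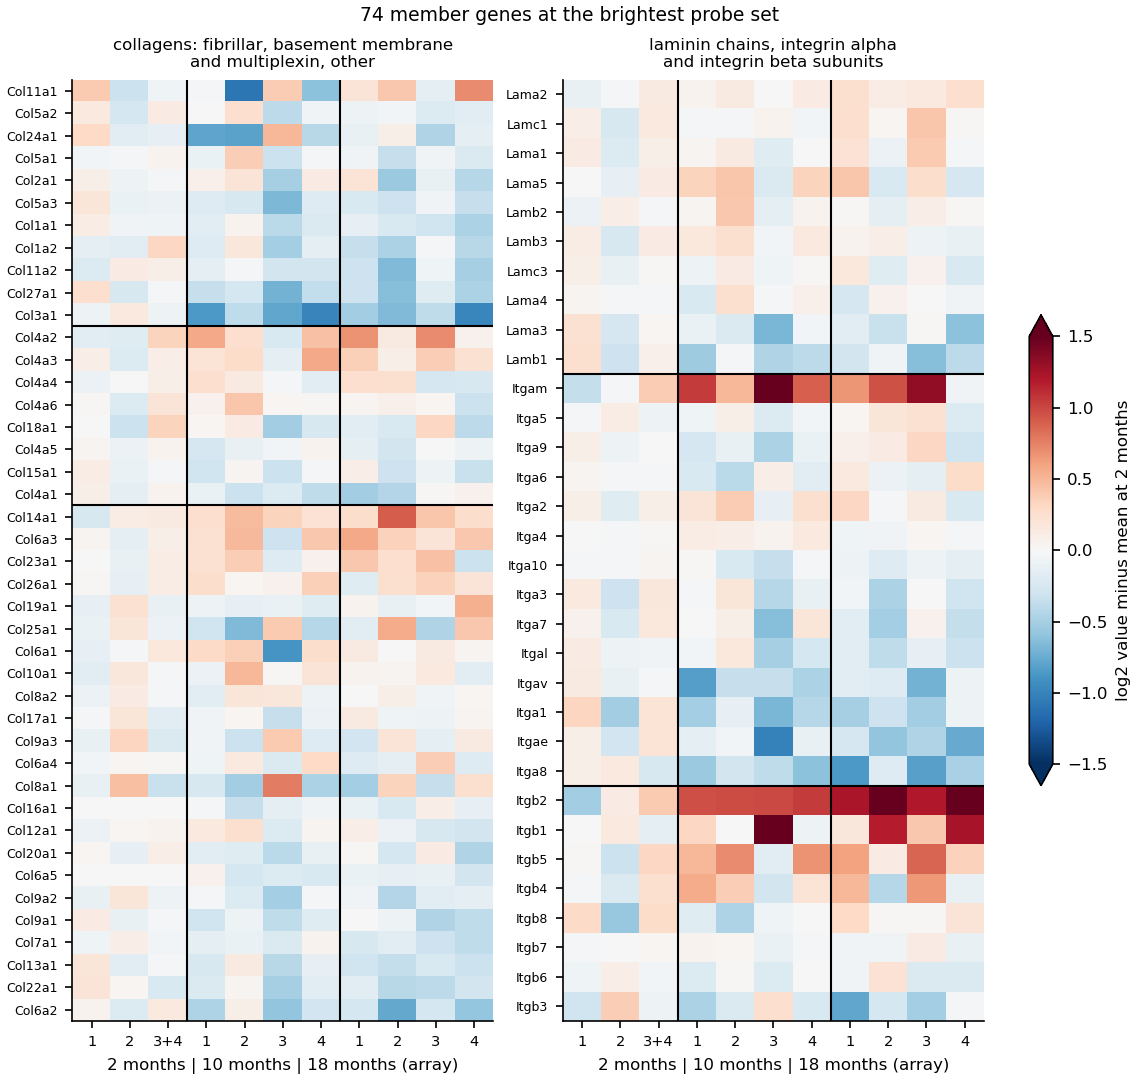
Log2 value minus the gene's mean at 2 months (colour) for the 74 member genes at their brightest probe set (rows) in each sample (columns, by age). Black lines part the ages and the families, and genes run from the highest to the lowest change at 18 against 2 months. The rows of Itgb2 and Itgam are red in the 10 months samples, and the rows of the fibrillar collagens are mostly pale blue there and at 18 months.

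None of the 8 genes for collagen IV chains and for collagens XV and XVIII was called at any age, with a median log2 change of -0.08 at 18 against 2 months. Col4a1 and Col4a2 encode the common pair of collagen IV chains and lie head to head. Their promoter windows share 78 bases, shown in capitals, read from opposite strands, at chr8:11312777-11313076 on the - strand for Col4a1 and chr8:11312555-11312854 on the + strand for Col4a2.
Col4a1: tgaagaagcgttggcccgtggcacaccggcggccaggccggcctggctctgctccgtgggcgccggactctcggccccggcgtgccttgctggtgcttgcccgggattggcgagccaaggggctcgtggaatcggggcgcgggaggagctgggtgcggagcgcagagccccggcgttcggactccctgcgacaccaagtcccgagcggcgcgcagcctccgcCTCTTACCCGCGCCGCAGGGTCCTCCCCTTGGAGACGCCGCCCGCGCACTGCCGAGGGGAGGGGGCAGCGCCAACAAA
Col4a2: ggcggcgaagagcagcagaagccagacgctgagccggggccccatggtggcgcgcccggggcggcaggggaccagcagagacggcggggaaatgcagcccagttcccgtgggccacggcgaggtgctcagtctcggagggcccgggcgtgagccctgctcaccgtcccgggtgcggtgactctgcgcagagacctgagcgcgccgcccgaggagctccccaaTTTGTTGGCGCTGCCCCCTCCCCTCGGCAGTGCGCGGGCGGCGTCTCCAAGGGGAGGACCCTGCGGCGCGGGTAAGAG

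These neighbours had changes of opposite sign, and neither passed the test. Col4a1 averaged 8.14 ± 0.30 at 18 months and 8.35 ± 0.13 at 2 months (log2 change -0.22 ± 0.16, adjusted p = 0.44), and its second probe set changed by -0.08. Col4a2 averaged 7.69 ± 0.34 at 18 months and 7.29 ± 0.29 at 2 months (log2 change 0.40 ± 0.23, adjusted p = 0.321, 95% interval -0.10 to 0.89). Col4a3, a chain of specialised basement membranes, changed by 0.26 ± 0.16 (adjusted p = 0.352), and its dim second probe set by -0.12. The remaining 5 genes lay between -0.16 and 0.00.

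Of the 23 genes for other collagens 13 had a change below 0 and 10 above, with a median of -0.04, and none was called at its brightest probe set. Col8a1, a short-chain collagen of vessel walls, was called at 1 of 3 probe sets. Probe set 1418440_at read 6.73, 6.59 and 6.39 in young samples, 6.39, 6.29, 6.28 and 6.03 at 10 months, and 6.02, 5.98, 6.11 and 5.88 at 18 months. The 18 months samples were below all young ones, and the gene fell there to 0.674 of the young level (log2 change -0.57 ± 0.12, adjusted p = 0.0183). Without young sample 1 or 2 the adjusted p was 0.11 and 0.0566. The brightest probe set, 1455627_at, changed by -0.07 ± 0.32 (adjusted p = 0.926, 95% interval -0.78 to 0.64), and the third by -0.25 ± 0.11.

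Collagen VI, a beaded-filament collagen built from 3 chains, had chains on both sides of 0. Col6a2 averaged 6.77 ± 0.25 at 18 months and 7.24 ± 0.18 at 2 months without overlap (log2 change -0.47 ± 0.18, adjusted p = 0.138). Its second probe set changed by -0.22. Col6a3 averaged 6.61 ± 0.16 at 18 months and 6.23 ± 0.11 at 2 months, also without overlap (0.38 ± 0.18, adjusted p = 0.221). Col14a1, which decorates collagen fibrils, had the highest change of the family at a brightest probe set, with 6.54 ± 0.30 at 18 months and 6.07 ± 0.21 at 2 months (0.46 ± 0.16, adjusted p = 0.109). Its other probe sets changed by -0.04 and -0.03.

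Col25a1, a membrane-bound collagen of neurons, averaged 11.88 ± 0.48 at 18 months and 11.80 ± 0.16 at 2 months at its brightest probe set (log2 change 0.09 ± 0.27, adjusted p = 0.889). The second Col25a1 probe set changed by -0.20. Col9a3, a collagen IX chain known best from cartilage, changed by -0.02 ± 0.19 (adjusted p = 0.961). Its other probe sets changed by -0.33 and -0.02. A dim probe set of Col19a1 (1421698_a_at) had the highest change of all collagen probe sets and was named after its values were seen. It read 4.08, 4.26 and 4.15 in young samples, 5.2, 3.96, 4.79 and 4.45 at 10 months, and 4.56, 4.78, 5.21 and 5.74 at 18 months, with no overlap between 18 and 2 months but no call (0.91 ± 0.30, adjusted p = 0.0892). The brightest Col19a1 probe set changed by 0.11.

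The 10 genes for laminin chains had a median change of -0.01 at 18 against 2 months, from -0.34 to 0.19, with none of their 19 probe sets called in any comparison. Lama2, the alpha 2 chain found in the basement membranes of muscle and brain vessels, averaged 8.29 ± 0.07 at 18 months and 8.10 ± 0.12 at 2 months (log2 change 0.19 ± 0.10, adjusted p = 0.272). The 95% interval was -0.02 to 0.40. Lamb1, a chain shared by many laminins, averaged 8.94 ± 0.25 at 18 months and 9.28 ± 0.28 at 2 months (-0.34 ± 0.18, adjusted p = 0.274), while its other 3 probe sets changed by -0.12 to 0.20.

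Lamc1, the gamma chain of most laminins, changed by 0.18 ± 0.13 (adjusted p = 0.455), and Lamb2 by -0.002 ± 0.13 (95% interval -0.28 to 0.28). The vascular alpha chains Lama4 and Lama5 changed by -0.06 ± 0.12 and 0.05 ± 0.20. Lama3, a chain of epithelial laminins, changed by -0.27 ± 0.19 (adjusted p = 0.428). Second probe sets changed by -0.14 for Lamc1, -0.05 for Lama4 and -0.235 for Lama3. The other Lama5 probe sets changed by 0.08 and -0.24.

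Other genes of the matrix and of integrin signalling were read at the brightest probe set, against 8.82% of all genes called at 18 against 2 months. Of 28 matrix partners 4 rose and 2 fell. Prelp, which anchors basement membranes to connective tissue, and Fbln5, an elastic fibre protein that binds integrins, rose by 1.35 and 1.23 log2 units (adjusted p = 0.0145 and 0.00492). Sparcl1, a synapse-forming astrocyte protein, and Thbs2, a thrombospondin, rose by 0.68 and 0.51. Weaker probe sets were not called, at 0.26 for Prelp, -0.08 for Fbln5, and -0.30 and 0.20 for Thbs2. Nid1, the nidogen that links laminin to collagen IV, fell by 0.58 log2 units (adjusted p = 0.0255), and Tnr, a tenascin of perineuronal nets, fell by 0.69.

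Nid1 was called and the chains it links were not, a difference that was not itself tested. It read 7.71, 7.65 and 7.72 in young samples, 6.86, 7.36, 7.34 and 7.08 at 10 months, and 7.0, 7.26, 7.19 and 7.0 at 18 months, with every older sample below every young one. The weaker Nid1 probe sets changed by 0.01 and -0.06 at 18 against 2 months, without a call. Of 22 collagen modifying enzymes Crtap and P4hb, members of the prolyl hydroxylase complexes, rose by 0.92 and 0.58 (adjusted p = 0.0107 and 0.0398), and none fell. Of 15 matrix proteases and inhibitors only Mmp24, a membrane-bound protease of neurons, was called, and it fell by 0.64 (adjusted p = 0.0247). Its other probe sets changed by -0.17 and -0.13, without a call.

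Of 26 integrin adaptors 1 rose and 3 fell. Lims1, which joins integrin-linked kinase to the actin skeleton, rose by 0.58 (adjusted p = 0.0264). Its other probe sets changed by -0.27 to 0.15, without a call. The focal adhesion scaffolds Pxn and Bcar1 fell by 0.95 and 0.90 (adjusted p = 0.0273 and 0.0375), and the actin crosslinker Actn1 fell by 0.44. A second Bcar1 probe set was also called lower (-0.43). The other probe sets of Pxn and Actn1 changed by -0.24 to 0.16, without a call. Of 18 integrin ligands on other cells and other matrix receptors, Jam3, a junction protein and ligand of the alpha M beta 2 pair, rose by 0.92 (adjusted p = 0.0116). L1cam, an adhesion molecule of axons, fell by 0.52 (adjusted p = 0.0426). Weaker probe sets of both genes had the opposite sign without a call, at -0.11 for Jam3 and 0.61 for L1cam.

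Of 10 markers of dopaminergic neurons, the defining Th, Slc6a3, Ddc and Aldh1a1 had mean levels of 13.0 to 14.2 at every age, as the tissue label has it, although these genes do not tell the VTA from the neighbouring substantia nigra. In this list Th and Calb1 rose at 18 against 2 months by 0.84 and 0.70 (adjusted p = 0.00735 and 0.0199), and the mean of the 10 was 11.81 to 11.96 at 18 months and 11.50 to 11.66 at 2 months. RNA controls moved with age as well. The 3′ minus 5′ difference of Actb and Gapdh, which grows as cDNA copies become shorter, was 3.29 to 3.63 in young samples, 1.69 to 2.44 at 10 months and 1.64 to 2.17 at 18 months, and the mean of the added poly-A RNAs was 5.67 to 5.83, 5.92 to 6.08 and 6.23 to 6.89. With that difference as a covariate no member was called at 18 against 2 or 10 against 2 months. Nor was any other of the 45037 probe sets. Since the young samples did not overlap the older ones in this difference, its effect and that of age cannot be told apart.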

How the data were processed

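The deposited table holds log2 expression values of 45101 probe sets on 12 arrays, which the authors made from the scanned arrays by RMA (background correction, quantile normalization and summarisation of probes). Arrays have no read depth, so their number limits the precision. RNA had been amplified and labelled in a pair of cycles, which shortens the copies toward the 3′ end. The submitters' notes name RMA and limma 3.4.5. Here 64 control probe sets were left out and 45037 probe sets were fitted with limma 3.58.1 in R 4.3.3, all ages in 1 fit, with the contrasts 18 against 2, 10 against 2 and 18 against 10 months, and the difference of both intervals. Calls needed an adjusted p under 0.05 (Benjamini-Hochberg over 45037) and a change over 1.3-fold, the latter not for the difference of intervals.

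Probe sets were named by the platform annotation: 34945 had 1 gene, 932 several and 9160 none. All 74 member genes were found under the same symbol in the RefSeq table of GRCm38.p6, and 53 had a promoter window (motif shares leave out chromosome 18). One integrin gene is not reported here. Each gene was represented by its brightest probe set, by the mean of the 12 arrays. Levels of different probe sets are not comparable. Of the member probe sets 37 were dim, under the lower quartile on all arrays, and none of these was called.

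Named members were those called, in each family the 2 of highest level and the 3 of largest change, and known partner chains. In the partner lists the called genes were named. The members and lists were chosen with earlier results of these data known. Labels do not say whether mice of different arrays shared a cage or batch, and p-values measure the spread between pools. Alternatives were separate young arrays, a replicate block, the 3′ minus 5′ covariate, median centring, repeated quantile normalization, a filter on dim probe sets, other fold thresholds, leaving out each sample, only the ages compared, array weights, and a wider reading of integrin symbols. The fit was tested on simulated data.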

Additional observations from a re-analysis of the deposited data

Results flagged for a closer look

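For 36 probe sets of the named members the 10 and 18 months groups of 4 arrays were searched for an array far from the others, 72 groups in all, of which chance gives about 1 in 20. There were 2 such values, both on array 3 of 10 months. Itgae (1447541_s_at) read 6.46 there, the lowest value, against 7.34 to 7.43 on the other arrays of 10 months. Lama5 (1427009_at) read 7.01 there, also the lowest, against 7.56 to 7.65. This array also correlated least with the others of its age (r = 0.967 to 0.984, against 0.991 to 0.996 among the other 3).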

How the results depend on the processing

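At 18 against 2 months the count of called members was 0 with the 3′ minus 5′ covariate, 3 to 8 when each sample was left out (3, all higher, without young sample 1 or 2), and 4 to 9 in every other alternative. Among all probe sets the count was 3359 in the main fit. It was 0 with the covariate and 423 to 5326 with each sample left out. Median centring and repeated quantile normalization each gave 3 higher and 1 lower, and array weights 3 higher and 6 lower. Array weights called 3095 of all probe sets higher and 2244 lower. The rises of Itgb2 and of the called Itgb5 probe sets were lost only with the covariate (adjusted p = 1.0), where the log2 changes were 1.34, 0.49 and 0.56. The change of Itgb3 (1421511_at) turned to 0.011 with the covariate. A wider reading of the integrin symbols (165 probe sets) gave 7 calls, the added one for Itgb1bp1, a protein that binds the beta 1 tail.

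At 10 against 2 months the count of 3 became 0 with the covariate, 0 with the replicate block, 0 with only the compared ages in the fit and 5 with array weights, and 0 to 3 when each sample was left out. It was 0 without young sample 1 or 2, 10 months array 1 or 4, or 18 months array 2, and 1 without 18 months array 1, 3 or 4. Among all probe sets the 613 calls became 0 with the covariate, 3 with the block and 0 with only the compared ages. They became 2944 with array weights, and 1 to 1276 when each sample was left out. The other comparisons had 0 member calls in each alternative run. The replicate numbers do not pair the samples (same-numbered deviations correlated at -0.61 to 0.43), and with the block, on 12 separate arrays, 5 members were called at 18 against 2 months. Among all probe sets 2548 were called there. Of 114 alternatives of single called changes at 18 against 2 months 83 kept the call, 30 lost it and 1 turned sign. Of 570 of uncalled changes 5 passed the test. The number of pools limits what could be called.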

Other observations

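Several members split the arrays of one age in the same way, a pattern noticed in the values and not tested. Itgb1 (1452545_a_at) read 8.84 and 8.90 on arrays 2 and 4 of 18 months, against 7.83 and 8.07 on arrays 1 and 3. Col8a1 (1455627_at) read 8.25 and 8.16 on arrays 2 and 4, against 7.41 and 7.57. Lama5 (1427009_at) ran the other way, with 7.0 and 6.98 on arrays 2 and 4, against 7.64 and 7.50. Array 3 of 10 months stood on the same side as arrays 2 and 4 of 18 months for all 3, at 9.28, 8.69 and 7.01. Over all probe sets arrays 2 and 4 of 18 months correlated at r = 0.995, as did arrays 1 and 3, against 0.984 to 0.989 between these pairs.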
